A study of Mus musculus with 20 samples.

Results

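The genes of the proteasome were examined in mouse splenic T effector cells, before and after activation and with or without the RNA-binding protein gene Pcbp2. Members were all protein-coding genes of the count table whose symbol starts with Psma, Psmb, Psmc, Psmd, Psme, Psmf or Psmg. There were 50 of them among 49315 genes, on 16 chromosomes, and 49 encode parts, activators, an inhibitor or assembly chaperones of the proteasome. The remaining gene, Psmc3ip, encodes a partner protein in meiotic recombination and shares only the prefix. Psmb8, Psmb9 and Psmb10, the immunosubunits, were compared with the rest.

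Cells were flow sorted from spleen as CD4+CD25- and sequenced as 20 libraries. CKO mice (Fl-Pcbp2/CD4cre) carry a floxed Pcbp2 gene and a Cre recombinase driven by CD4, which also acts in other cells that express or once expressed CD4. CTL mice (Fl-Pcbp2) are littermates that carry the floxed gene without Cre. Both genotypes were sampled at 0 h (6 CTL and 6 CKO libraries) and after 6 h of incubation with CD3/CD28 activator beads (5 CTL and 3 CKO libraries). All 6 CKO libraries at 0 h are labelled male, while each other group holds libraries labelled male and female, so labelled sex is tied to genotype at 0 h. The sources used here do not give the ages of the mice. A 6 h culture lacking beads was not analysed here, which means that bead and culture effects cannot be told apart. Each library carries a number in its title, such as 4.24 or 5.13, which the labels do not tie to an animal, so p-values measure the spread between these libraries, which may be technical.

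Levels are in CPM, with each library's total scaled by its TMM factor. Libraries held 62.4 M to 85.6 M counts, except CTL_6h 4.24 with 26.4 M, whose TMM factor of 1.37 also lay above the 0.861 to 1.10 of the others. Pcbp2 itself was at 13.1 to 22.1 CPM in CKO against 261 to 396 CPM in CTL libraries at 0 h (exact two-sided permutation test, p = 0.0022, n = 6 and 6), and at 7.27 to 11.3 against 262 to 348 CPM at 6 h (exact p = 0.018, n = 3 and 5). The CKO libraries 4.24 and 5.6 at 0 h are labelled male but had 1160 and 1353 CPM of Xist and 0.284 and 0.117 CPM of Ddx3y, so the counts of calls, the ratios and the main gene values that rest on them are also given without them. The 10 CD4 T cell markers summed to 4899 to 6986 CPM at 0 h and to 2663 to 3492 CPM at 6 h. Markers of other cell types summed to less: 10 B cell markers to 42.7 to 348 CPM at 0 h and 20 to 98.7 CPM at 6 h, 13 myeloid and dendritic markers to 72.7 to 389 and 12.1 to 60 CPM, 4 NK markers to 21.9 to 65.6 and 16.9 to 31.9 CPM, 2 CD8 markers to 19.2 to 114 and 12 to 21.1 CPM, and 6 erythroid markers to at most 3.40 CPM. Over 6 h in CTL, 8 of the 10 CD4 T cell, 9 of the 10 B cell and 7 of the 13 myeloid and dendritic markers fell. So did 2 of the 2 CD8, 1 of the 4 NK and 2 of the 5 tested erythroid markers, and 1 myeloid marker rose. Of all genes tested, 21.7% fell and 41.6% rose. Among genes with a mean of at least 1 CPM, 38.9% fell and 16.9% rose. The part of these marker shifts in the changes described here was not tested. In bulk samples, fewer cells of a type and less RNA per cell cannot be told apart.

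The proteasome degrades proteins that carry ubiquitin chains. Its 20S core is a barrel of outer alpha rings, which gate the entrance, and inner beta rings, which hold the catalytic sites. The 19S cap recognises ubiquitin chains, removes them and unfolds the substrate with a ring of ATPases. In lymphocytes and in cells exposed to interferon, Psmb8, Psmb9 and Psmb10 take the places of the constitutive catalytic subunits Psmb5, Psmb6 and Psmb7, which makes the immunoproteasome and shifts the peptides presented on MHC class I. The PA28 activator, made of Psme1 and Psme2, can open the core in place of the 19S cap.

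Promoter windows are shown for the immunosubunits, for the constitutive partners Psmb5 and Psmb6, and for Psme1, since these genes share their place in the core or their link to interferon. The sequences come from RefSeq on GRCm38.p6, from 250 bases before to 50 bases after the start of the gene, and 42 of the 50 members were matched to a window. Psma8, Psmb1, Psmb2, Psmb7, Psmc3, Psmd3, Psmd7 and Psmg2 were not matched. Each is written 5′ to 3′ on the strand of the gene, with matches to a searched motif in capitals.
Psmb8, chr17:34197945-34198244, plus strand: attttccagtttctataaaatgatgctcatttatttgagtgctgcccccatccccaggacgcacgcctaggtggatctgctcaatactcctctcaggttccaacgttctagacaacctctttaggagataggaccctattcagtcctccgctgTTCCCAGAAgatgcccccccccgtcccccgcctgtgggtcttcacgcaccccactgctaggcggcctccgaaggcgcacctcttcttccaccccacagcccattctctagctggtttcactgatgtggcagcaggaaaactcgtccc
Psmb9, chr17:34187281-34187580, minus strand: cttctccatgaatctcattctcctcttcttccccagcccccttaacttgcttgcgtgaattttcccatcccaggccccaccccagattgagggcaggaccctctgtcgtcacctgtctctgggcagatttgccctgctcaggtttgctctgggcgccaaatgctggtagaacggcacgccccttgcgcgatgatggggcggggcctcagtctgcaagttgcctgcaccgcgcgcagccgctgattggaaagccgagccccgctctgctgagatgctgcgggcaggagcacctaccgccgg
Psmb10, chr8:105938343-105938642, minus strand: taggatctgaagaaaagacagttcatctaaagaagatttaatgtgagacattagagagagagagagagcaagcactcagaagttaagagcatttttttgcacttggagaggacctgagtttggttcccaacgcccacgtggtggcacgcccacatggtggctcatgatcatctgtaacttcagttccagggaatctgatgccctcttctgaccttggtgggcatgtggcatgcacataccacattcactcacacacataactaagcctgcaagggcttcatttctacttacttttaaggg
Psmb5, chr14:54617946-54618245, minus strand: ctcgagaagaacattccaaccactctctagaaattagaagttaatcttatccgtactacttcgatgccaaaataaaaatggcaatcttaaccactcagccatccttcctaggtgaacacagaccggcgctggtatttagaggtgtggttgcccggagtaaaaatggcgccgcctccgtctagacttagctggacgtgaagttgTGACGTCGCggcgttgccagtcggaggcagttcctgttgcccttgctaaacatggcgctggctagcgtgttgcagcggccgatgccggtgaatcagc
Psmb6, chr11:70525107-70525406, plus strand: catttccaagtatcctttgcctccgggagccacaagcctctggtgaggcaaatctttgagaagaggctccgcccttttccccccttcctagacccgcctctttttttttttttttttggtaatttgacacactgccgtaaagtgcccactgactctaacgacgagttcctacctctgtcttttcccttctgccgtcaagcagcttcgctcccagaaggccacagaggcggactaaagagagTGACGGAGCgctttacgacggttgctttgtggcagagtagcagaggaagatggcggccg
Psme1, chr14:55578244-55578543, plus strand: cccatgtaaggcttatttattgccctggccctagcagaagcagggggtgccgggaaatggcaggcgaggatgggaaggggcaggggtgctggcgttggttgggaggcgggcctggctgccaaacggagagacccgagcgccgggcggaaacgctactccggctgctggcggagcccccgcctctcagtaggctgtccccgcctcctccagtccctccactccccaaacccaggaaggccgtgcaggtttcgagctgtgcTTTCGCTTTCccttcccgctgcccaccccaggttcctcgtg

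The motifs below were searched on both strands, with N for any base, and do not overlap one another in the windows shown: TGACNNNGC, the antioxidant response element bound by the Nrf1 and Nrf2 families, TTCNNNGAA, the STAT element, and the IRF element, GAAA and again GAAA with 2 free bases between them. The antioxidant response letters were found in 12.39% of 32851 windows and in 6 of the 45 windows of members (13.3%), among them Psmb5 (TGACGTCGC, starting 47 bases before the gene start) and Psmb6 (TGACGGAGC, starting 9 bases before it). The STAT letters were found in 8.3% of all windows and in 3 of 45 (6.7%), among them Psmb8 (TTCCCAGAA, starting 97 bases before). The IRF letters were found in 3.44% of all windows and in 5 of 45 (11.1%), among them Psme1 (TTTCGCTTTC as read on the gene strand, starting 10 bases after). The windows of Psmb9 and Psmb10 held none of the letters searched. These matches describe the windows only. RefSeq starts need not be the starts used in these cells: within 100 bases of the RefSeq start began 0 of 7 annotated transcripts of Psmb8, 3 of 7 of Psmb9, 1 of 7 of Psmb10, 2 of 2 of Psmb5, 2 of 4 of Psmb6 and 8 of 13 of Psme1.

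Per exon length, PA28 and the immunosubunits Psmb8 and Psmb10 were the most abundant members in resting control cells. Psme1 led with 119 ± 15.7 CPM per kb of merged exon (SD, n = 6), followed by Psme2 with 111 ± 15.3, Psmb8 with 95.8 ± 13.7 and Psmb10 with 77.3 ± 12.3. The level of Psmb9 was 57.2 ± 5.5 CPM per kb, next to its neighbours in the order Psma6 (60.0), Psmb4 (58.4) and Psmb5 (56.8), from which it did not differ beyond the spread. Psmb6 stood at 35.6 CPM per kb and Psmb7, which Psmb10 replaces, at 13.5. At the low end stood Psmd9 (2.84 CPM per kb), Psmc3ip (2.12), and the germ-cell alpha subunit Psma8 and the thymus subunit Psmb11. With the longest transcript as length, the order began with Psme2, Psmb8, Psme1 and Psmb10. That length is 2884 bases for Psmb9 and 966 for Psmb6, against 3660 and 1872 bases of merged exon. The gap between Psmb9 and Psmb6 per kb therefore depends on the length used. After 6 h, control cells held 204 CPM per kb of Psme2, 176 of Psme1, 85.8 of Psmb8, 76.2 of Psmb10 and 72 of Psmb9.

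**Figure D1:**
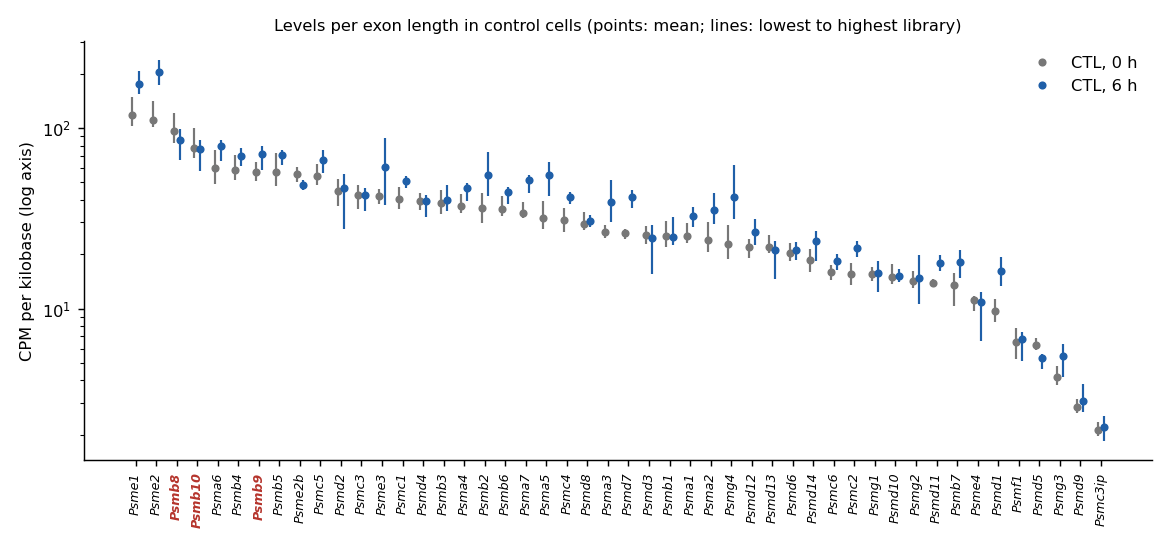
Mean CPM per kb of merged exon of each member in CTL cells at 0 h and 6 h, on a log axis, with lines from the lowest to the highest library and without Psma8 and Psmb11. Psme1, Psme2 and Psmb8 lead at 0 h, and Psme2 leads at 6 h with 204 CPM per kb.

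In control cells, the alpha ring, most constitutive beta subunits, most 19S ATPases and PA28 rose over 6 h, by up to 1.83-fold among members with a mean of at least 1 CPM, while Psmb8 and Psmb10 did not pass the test. Of 49 members tested (edgeR quasi-likelihood test, Benjamini-Hochberg adjusted p under 0.05 over 28082 genes), 29 rose and 2 fell, where 41.6% of all genes tested rose and 21.7% fell. The median log2 change of the members was 0.31, and that of all genes tested was also 0.31, although without CTL_6h 4.24 the median of all genes was 0.15 and that of the members stayed at 0.31. That median is carried by genes of low level: among the 14189 genes with a mean of at least 1 CPM, the median was -0.20, and 16.9% rose and 38.9% fell. When genes under a mean of 1 CPM were removed before scaling, 35 of 48 members rose and 0 fell, against 27.8% and 25.2% of 14446 genes, with a median of 0.52 for members and 0.03 for all. DESeq2 called 29 higher and 1 lower. The calls held unevenly over 39 other settings of filter, threshold, scaling, model or libraries left out. Psmc6, Psmc5, Psmb4 and Psmb5 lost theirs in 20, 16, 14 and 11 settings, and Psmb6, Psmc1 and Psmb7 in 9, 7 and 6. Of the alpha genes, Psma4 lost its call in 5, Psma6 in 1 and the others in 0. Psmb2, Psmc2, Psmc4, Psme1 and Psme2 kept theirs in all 39. The libraries of both times did not overlap for 13 of the 50 members, 12 higher and 1 lower at 6 h, where 17.3% of all genes lay wholly above and 12.6% wholly below.

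**Figure D2:**
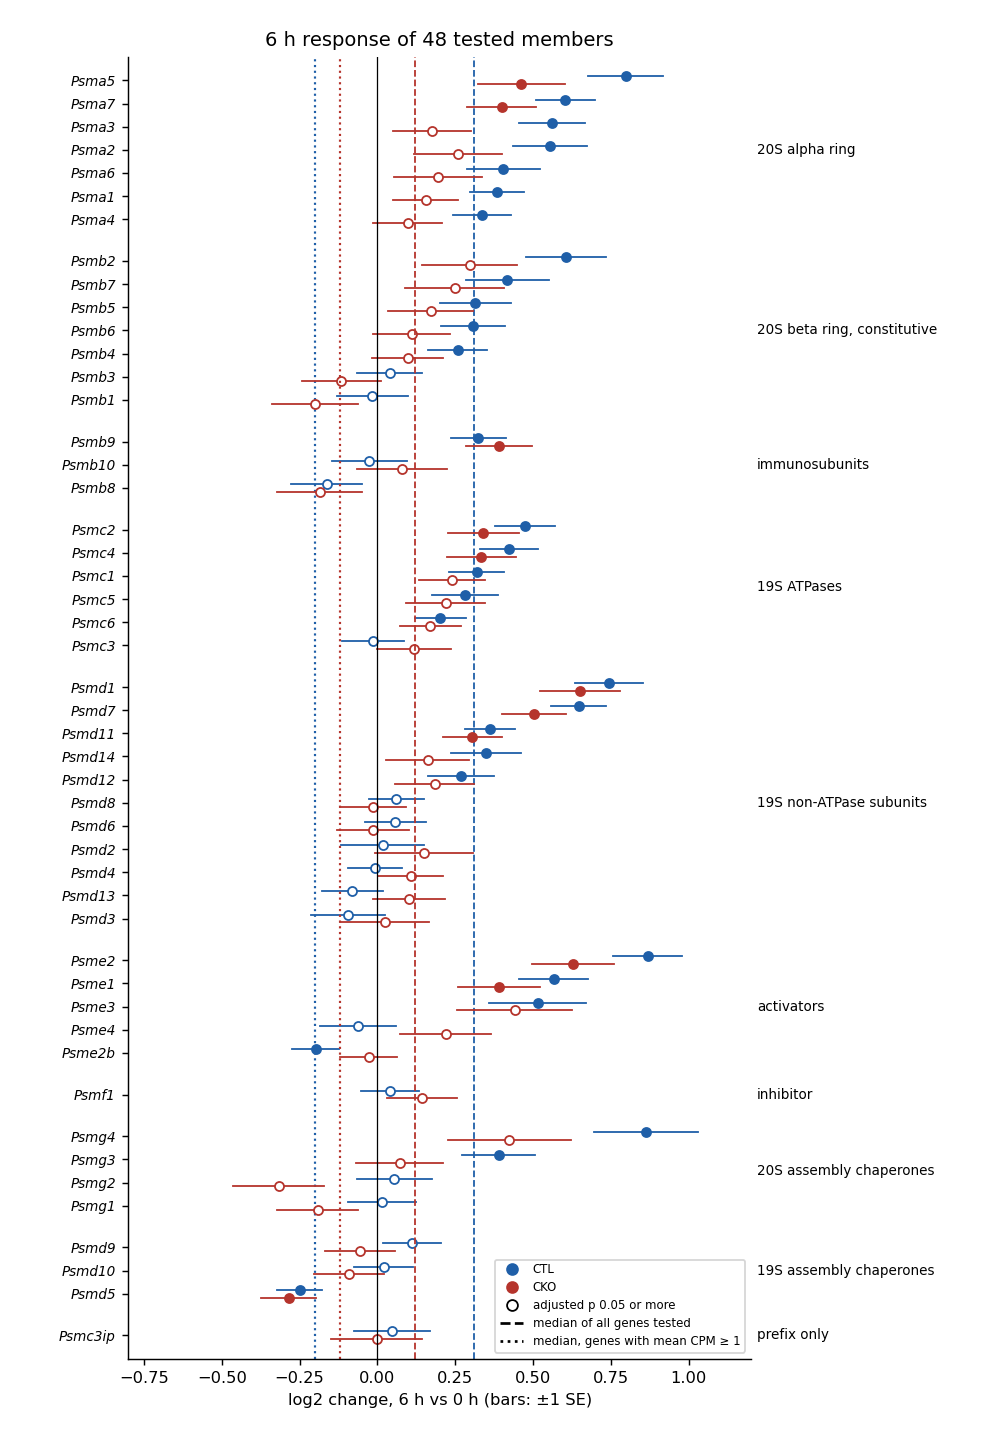
Log2 change from 0 h to 6 h in CTL (blue) and CKO (red) cells for 48 members by role, with bars of 1 SE and filled points for adjusted p under 0.05. Dashed lines mark the median of all genes tested and dotted lines that of genes with a mean of at least 1 CPM; Psmb11, at a log2 change of 4.18 in CTL, is left out of the plot. All 7 alpha subunits are filled in CTL, and among the 3 immunosubunits Psmb9 is.

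All 7 tested alpha ring genes rose in control cells, by 0.34 to 0.80 on the log2 scale. Psma5, a member of this ring, lay at 36.7 CPM in the lowest, 40.0 in the median and 51.9 CPM in the highest CTL library at 0 h. After 6 h its CTL libraries held 55.3, 70.4, 74.0, 78.6 and 85.9 CPM. Each 6 h library thus lay above each 0 h library, a 1.74-fold rise (log2 0.80, SE 0.12, adjusted p = 2.3e-05). Psma8, the germ-cell variant, held at most 0.389 CPM and was not tested.

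Of the 7 constitutive beta genes, 5 rose: Psmb2, Psmb4, Psmb5, Psmb6 and Psmb7. Psmb2, a structural subunit, held 35.7, 41.1 and 52.7 CPM in the lowest, median and highest CTL library at 0 h, and 50.4, 61.0, 63.3, 66.5 and 88.9 CPM at 6 h. The lowest 6 h library overlapped the 0 h range, and the rise was 1.52-fold (log2 0.60, SE 0.13, adjusted p = 0.00049). Psmb1 and Psmb3 did not pass the test, at log2 changes of -0.02 and 0.04.

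The constitutive catalytic subunits rose, by 0.31 to 0.42 on the log2 scale. Psmb5, which carries the chymotrypsin-like site (chr14:54614119-54618022, minus strand), held 42.8, 48.4 and 65.0 CPM in the lowest, median and highest CTL library at 0 h and 56.2, 63.7, 64.4, 66.5 and 68.3 CPM at 6 h (log2 0.31, adjusted p = 0.022). Psmb6, which carries the caspase-like site (chr11:70525367-70527858, plus strand), went from 60.7, 63.6 and 78.9 CPM to 71.0, 82.3, 85.2, 85.9 and 88.5 CPM (log2 0.31, adjusted p = 0.015). Psmb7, with the trypsin-like site (chr2:38588036-38644087, minus strand), went from 35.3, 46.4 and 53.9 CPM to 50.6, 52.9, 63.1, 71.0 and 72.3 CPM (log2 0.42, adjusted p = 0.011). In all 3 genes the 0 h and 6 h libraries overlapped. An exon of Psmb7 overlaps one of Nek6 over 405 bases of the opposite strand, and, as the sources used here do not state whether counting used strand, its counts are uncertain to that extent.

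The immunosubunits did not move as a group. Psmb8, which replaces Psmb5 (chr17:34197721-34201454, plus strand), held 279, 309 and 410 CPM in the lowest, median and highest CTL library at 0 h, and 225, 274, 305, 313 and 333 CPM at 6 h. Its log2 change was -0.16 (SE 0.11, adjusted p = 0.21), and its libraries overlapped. Psmb10, which replaces Psmb7 (chr8:105935735-105938444, minus strand), held 116, 126 and 171 CPM at 0 h and 98.9, 132, 133, 139 and 147 CPM at 6 h (log2 -0.03, SE 0.12, adjusted p = 0.86). These ranges overlapped throughout. Psmb9, which replaces Psmb6 (chr17:34181987-34187764, minus strand), held 185, 203 and 238 CPM at 0 h and 215, 258, 262, 289 and 293 CPM at 6 h. It rose 1.25-fold (log2 0.32, SE 0.089, adjusted p = 0.0036), and its lowest 6 h library lay inside the 0 h range. Exons overlap on the opposite strand between Psmb9 and Tap1 over 212 bases and between Psmb8 and Gm20496 over 498 bases. In counts, 1 of 3 immunosubunits and 28 of the other 46 members rose, with medians of -0.03 and 0.31, which describe these genes and are not a test of the list.

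**Figure D3:**
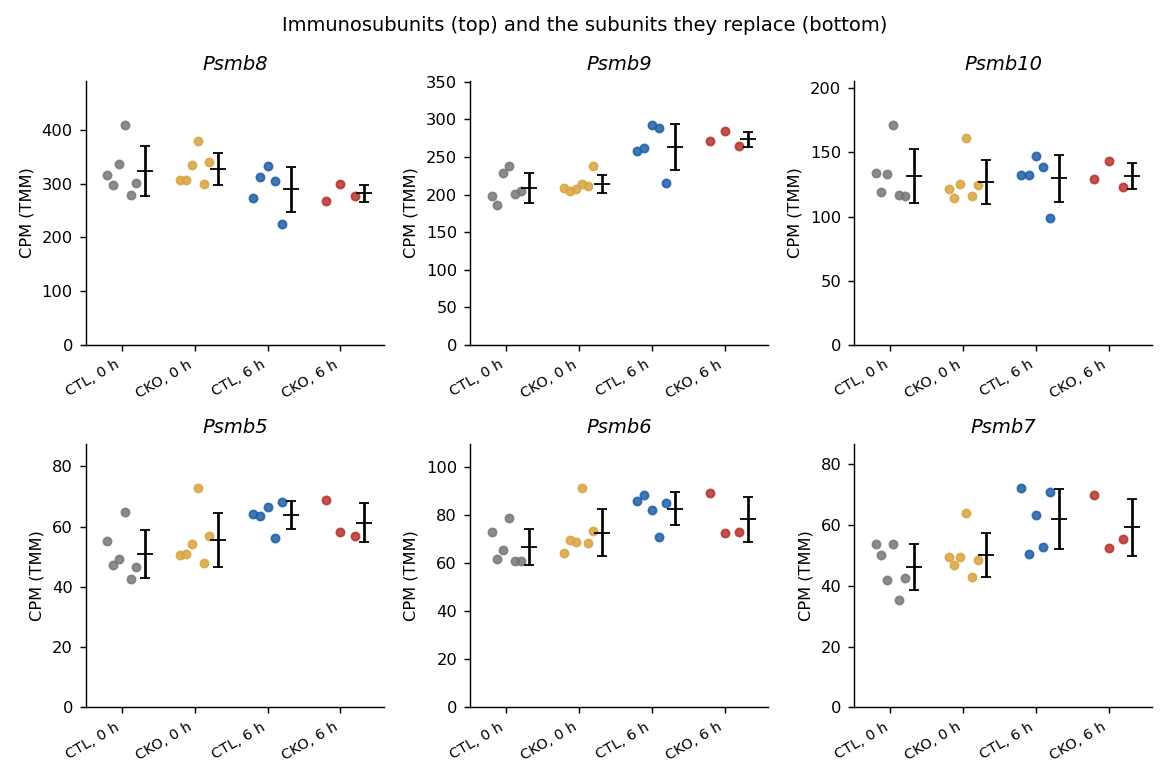
CPM of Psmb5, Psmb6, Psmb7, Psmb8, Psmb9 and Psmb10 in every library of the 4 groups, with points for libraries and bars for the mean ± SD. Psmb8 spans 279 to 410 CPM in CTL at 0 h and 225 to 333 CPM at 6 h, while Psmb9 moves from 185 to 238 up to 215 to 293 CPM.

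Of 6 ATPases of the 19S base, 5 rose, and Psmc3 did not pass the test at a log2 change of -0.01. Psmc2 held 67.8, 78.2 and 89.8 CPM in the lowest, median and highest CTL library at 0 h. At 6 h it held 97.7, 99.2, 113, 118 and 120 CPM, all above the 0 h range (1.39-fold, log2 0.47, SE 0.096, adjusted p = 0.00034). Among the 11 non-ATPase subunits, Psmd1, Psmd7, Psmd11, Psmd12 and Psmd14 rose and the other 6, at log2 changes of -0.09 to 0.06, did not pass. Psmd1, the large scaffold of the base, held 60.9, 68.4 and 81.7 CPM at 0 h and 97.2, 109, 114, 128 and 140 CPM at 6 h. No library of one time overlapped the other (1.68-fold, log2 0.75, SE 0.11, adjusted p = 1.9e-05). Psmd14, the deubiquitinase of the lid, rose by 0.35 (adjusted p = 0.011), while the ubiquitin receptor Psmd4 stood at -0.01. Psmd1 shares exon bases with Htr2b on the opposite strand and with Gm21972 on its own strand.

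Both PA28 subunits rose. Psme2 held 180, 189 and 251 CPM in the lowest, median and highest CTL library at 0 h, and 305, 332, 357, 385 and 418 CPM at 6 h. All 6 h libraries lay above those of 0 h (1.83-fold, log2 0.87, SE 0.11, adjusted p = 5.1e-06). Psme1 rose by 0.57 (adjusted p = 0.00025), from 227 to 328 CPM across 0 h libraries to 341 to 459 CPM at 6 h. Psme3, the nuclear PA28 gamma, rose by 0.51 (adjusted p = 0.0074), and Psme4, the PA200 activator, stood at -0.06. Psme2b, a near-copy of Psme2 whose reads may be shared with it, fell by 0.20 (adjusted p = 0.029), but stood at 0.027 when genes under a mean of 1 CPM were removed before scaling. Psmf1, the PI31 inhibitor of the core, stood at 0.04.

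Of the chaperones that assemble the core, Psmg3 and Psmg4 rose, and Psmg1 and Psmg2 stood at 0.01 and 0.05. Psmg4 held 10.4, 12.2 and 16.1 CPM in the lowest, median and highest CTL library at 0 h and 17.4, 20.4, 21.5, 21.8 and 34.7 CPM at 6 h. The times did not overlap, and 34.7 CPM belongs to CTL_6h 4.24, the shallow library (1.82-fold, log2 0.86, SE 0.17, adjusted p = 0.00021). Of the 19S chaperones, Psmd5 fell: it held 42.8, 44.7 and 49.8 CPM at 0 h and 33.6, 39.2, 39.7, 39.9 and 40.2 CPM at 6 h. It was the 1 member whose 6 h libraries all lay below those of 0 h in CTL (log2 -0.25, SE 0.072, adjusted p = 0.0053). The median log2 change of genes with a mean of at least 1 CPM was -0.20. When genes under a mean of 1 CPM were removed before scaling, Psmd5 was not called, as 0 members fell. Psmd9 and Psmd10 stood at 0.11 and 0.02, and Psmc3ip at 0.05. Psmb11, the subunit of the thymoproteasome, was close to absent: the 6 CTL libraries at 0 h held 24 counts in all and those at 6 h 266, or 0.294, 0.338, 0.634, 0.805 and 3.37 CPM, the highest in CTL_6h 4.24. It passed the test (log2 4.18, SE 0.63, adjusted p = 2.5e-05) at levels of about 1 CPM or less in the other 4 libraries.

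The ratio of an immunosubunit to the subunit it replaces needs no scaling between libraries. As log2 ratios of CPM + 0.5, Psmb8 to Psmb5 was 2.65 ± 0.082 in CTL at 0 h (SD, n = 6; 2.51 to 2.76) and 2.17 ± 0.28 at 6 h (n = 5; 1.71 to 2.43). The groups did not overlap, and the difference of -0.49, or 0.713-fold, had the smallest p this exact two-sided permutation test allows (p = 0.0022, adjusted over 12 tests p = 0.026). In CKO cells it went from 2.56 ± 0.096 (n = 6) to 2.20 ± 0.21 (n = 3), a difference of -0.36 that again had the smallest exact p possible (p = 0.012, adjusted p = 0.071). Without the CKO_0h libraries 4.24 and 5.6 that difference was -0.34 (exact p = 0.057, adjusted p = 0.23). When libraries of the same number were paired and signs flipped over the 5 CTL pairs, the difference was -0.48 with an exact p = 0.0625, the smallest possible there (adjusted p = 0.19). Over the 3 CKO pairs it was -0.33 (exact sign flips, p = 0.25, the smallest possible there, adjusted p = 0.375). The CKO ratio went from 2.58 to 1.96 in number 11.18, from 2.63 to 2.28 in 5.6 and from 2.37 to 2.35 in 5.13. With any single library left out, the CTL difference lay between -0.56 and -0.38. Its exact permutation p, adjusted over 12 tests, lay between 0.048 and 0.071, and the call was lost in 10 of these 11 cases. Each of these 11 tests gave the smallest exact p its smaller design allows (0.0048 or 0.0079), so the lost calls say nothing about stability.

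Psmb9 to Psmb6 did not differ between times in CTL, at 1.64 ± 0.13 and 1.66 ± 0.26 (difference 0.02, exact permutation test, adjusted p = 0.93). In CKO it was 1.56 ± 0.17 at 0 h and 1.81 ± 0.19 at 6 h (difference 0.24, exact permutation test, adjusted p = 0.21), and without the CKO_0h libraries 4.24 and 5.6 the difference was 0.26 (adjusted p = 0.46). Psmb10 to Psmb7 was 1.50 ± 0.20 at 0 h and 1.06 ± 0.39 at 6 h in CTL, a difference of -0.44 that failed the correction (exact permutation test, p = 0.035, adjusted p = 0.14) and was -0.29 without CTL_6h 9.20. In CKO it was 1.33 ± 0.052 and 1.15 ± 0.28 (difference -0.18, exact permutation test, adjusted p = 0.22). This difference was -0.17 without the CKO_0h libraries 4.24 and 5.6 (adjusted p = 0.54), but -0.04 without CKO_6h 11.18 and -0.32 without CKO_6h 5.13. Between genotypes no ratio passed at 0 h or 6 h. The closest, Psmb8 to Psmb5 at 0 h, differed by -0.094 (exact permutation test, adjusted p = 0.21), and by -0.12 without CTL_0h 10.28 (adjusted p = 0.048). Paired by number at 0 h, CKO lay below CTL in all 5 pairs for Psmb8 to Psmb5, by -0.13, and for Psmb9 to Psmb6, by -0.15 against -0.082 unpaired, each with the smallest exact p that 5 pairs allow (p = 0.0625, adjusted p = 0.19). For Psmb10 to Psmb7 the paired difference was -0.20 (exact p = 0.125, adjusted p = 0.23). Without the CKO_0h libraries 4.24 and 5.6, the unpaired differences were -0.12, -0.094 and -0.18 (exact permutation test, adjusted p = 0.26, 0.60 and 0.29).

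**Figure D4:**
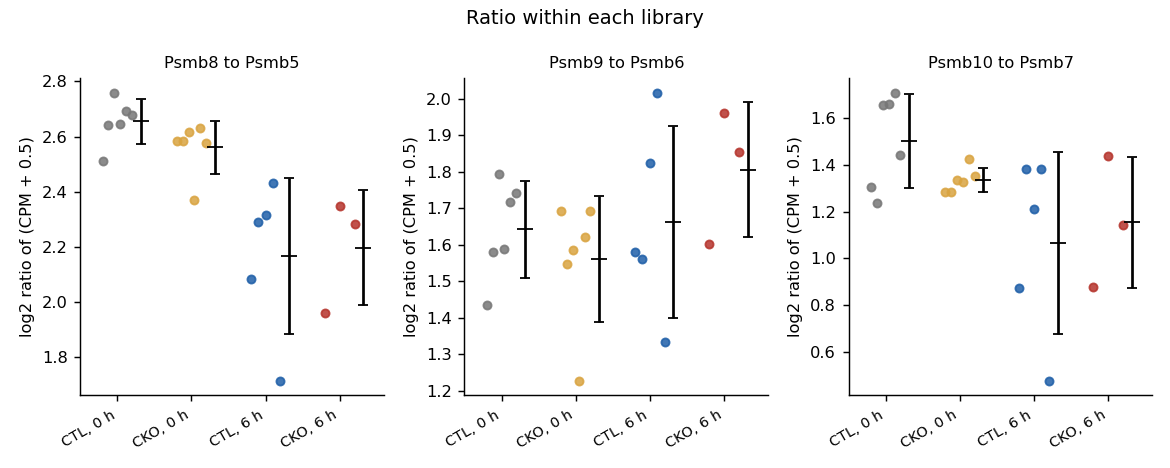
Log2 ratio (CPM + 0.5) of each immunosubunit to the constitutive subunit it replaces, in every library of the 4 groups, with bars for the mean ± SD. For Psmb8 to Psmb5 the CTL libraries span 2.51 to 2.76 at 0 h and 1.71 to 2.43 at 6 h without overlap.

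In CKO cells, fewer members passed the test, with 3 libraries at 6 h: 11 rose and 1 fell, where 19.6% of all genes tested rose and 13.1% fell. Those that rose were the alpha genes Psma5 and Psma7, the immunosubunit Psmb9, the ATPases Psmc2 and Psmc4, the 19S subunits Psmd1, Psmd7 and Psmd11, PA28 (Psme1 and Psme2) and Psmb11, and the 1 that fell was again the 19S chaperone Psmd5 (-0.29, adjusted p = 0.017). The median log2 change was 0.16, against 0.12 for all genes tested and -0.12 for genes with a mean of at least 1 CPM, of which 10.3% rose and 22.6% fell. With genes under a mean of 1 CPM removed before scaling, 17 members rose and 0 fell, against 16.3% and 18.0% of genes. DESeq2 called 14 higher and 1 lower.

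Apart from Psmb11, Psmd1 and Psme2 had the largest log2 changes in CKO. Psmd1 rose by 0.65 (SE 0.13, adjusted p = 0.0010), from 62.0 to 81.7 CPM across 0 h libraries to 98.8, 101 and 125 CPM. Psme2 rose by 0.63 (SE 0.13, adjusted p = 0.0016), to 284, 293 and 364 CPM from 184 to 240 CPM. Psma5 rose by 0.46 (SE 0.14, adjusted p = 0.017), with 53.2, 56.1 and 71.4 CPM at 6 h against 39.4 to 52.1 CPM at 0 h. In each of these genes all 3 libraries at 6 h lay above the 6 at 0 h. Among the immunosubunits, Psmb9 rose by 0.39 (SE 0.11, adjusted p = 0.0089) to 265, 271 and 284 CPM from 205, 210 and 239 CPM, without overlap. Psmb8 (-0.19, adjusted p = 0.31) held 269, 278 and 299 CPM, below its 0 h range of 299 to 379 CPM, and Psmb10 (0.08, adjusted p = 0.71) held 123, 129 and 143 CPM within its 0 h range of 115 to 161 CPM. For 8 members the 6 h libraries lay wholly above and for 2 wholly below those of 0 h, where 29.9% and 17.1% of all genes did. Without the CKO_0h libraries 4.24 and 5.6, which switched the reference library for scaling, 4 members rose and 1 fell in CKO, and 16 and 3 in CTL. In that fit 5300 genes rose and 3343 fell in CKO, and 10893 and 6759 in CTL. With the same reference library kept, a setting added after seeing the data, 6 members rose and 1 fell in CKO, and 29 and 2 in CTL. Of 27966 genes tested there, 5449 rose and 3330 fell in CKO, and 11573 and 5958 in CTL. The log2 changes in CKO were then 0.58 for Psmd1, 0.58 for Psme2, 0.37 for Psmb9 and -0.30 for Psmd5, all still called, and 0.42 for Psma5, which was not (adjusted p = 0.051). Without CKO_6h 11.18, 5 rose and 1 fell, where 2683 and 2165 of 30319 genes did.

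No member passed the test between genotypes. At 0 h, CKO against CTL called 0 of 49, also without the CKO_0h libraries 4.24 and 5.6, where 0.231% of all genes were higher and 0.192% lower. Log2 differences ran from -0.16 to 0.26, the smallest adjusted p was 0.45, DESeq2 called 0, and 1 member (2.04%) had an unadjusted p under 0.05, against 7.54% of all genes. That was Psmd9, a 19S chaperone, at 19.1 to 22.7 CPM in CTL and 21.5 to 27.2 CPM in CKO libraries, a difference of 0.26 (SE 0.098) with overlapping groups. At 6 h, 0 were called, where 0.253% of all genes were higher and 0.0392% lower, DESeq2 called 0, and 4 (8.16%) had an unadjusted p under 0.05, against 12.7% of all genes: Psma3 (-0.32), Psmg1 (-0.31), Psmg2 (-0.32) and Psmg4 (-0.46), the last 3 being chaperones of core assembly. Their smallest adjusted p was 0.37, and the median difference of all members was -0.09 against -0.29 for all genes tested and 0.07 for genes with a mean of at least 1 CPM.

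The immunosubunits differed little between genotypes, by -0.10 to -0.02 at 0 h and -0.05 to 0.05 at 6 h, with SE of 0.093 to 0.145. At 0 h no member had groups that did not overlap, where 0.951% of all genes lay wholly above and 0.979% wholly below. At 6 h, CKO libraries lay wholly above CTL for the 19S genes Psmc3, Psmd4 and Psmd13, where 3.65% of all genes lay wholly above and 3.05% wholly below. Psmc3 held 123, 123 and 130 CPM in CKO against 90.3 to 121 CPM in CTL, Psmd13 80.7, 83.2 and 86.0 against 49.4 to 79.9 CPM, and Psmd4 124, 124 and 130 against 90.4 to 119 CPM. In each, the lowest CTL value came from CTL_6h 4.24. The difference of the 6 h response between genotypes, tested as an interaction, called 0 of 49 members, and 0.00% of all genes were called higher and 0.00% lower. DESeq2 called 0, 1 member (Psma3, -0.39) had an unadjusted p under 0.05, against 9.70% of all genes, and the smallest adjusted p was 0.46.

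**Figure D5:**
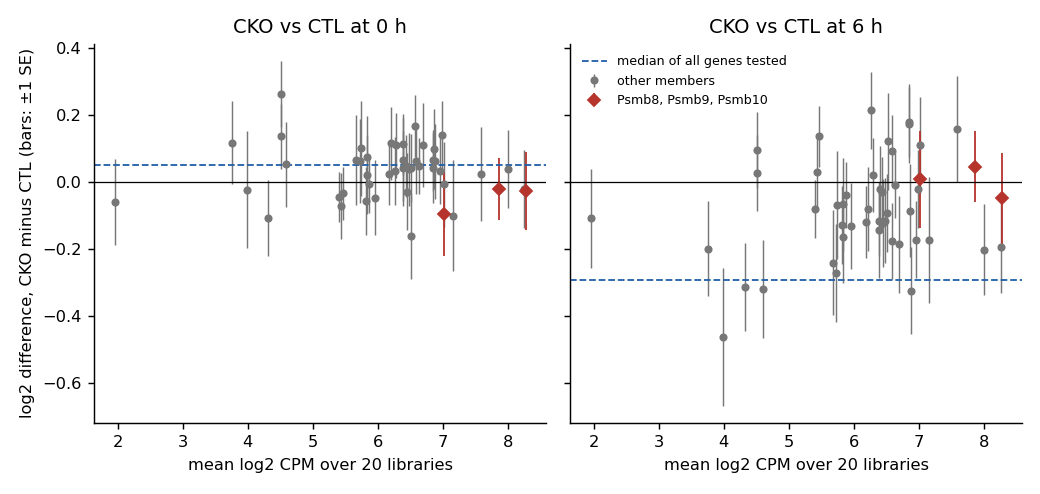
Log2 difference of CKO minus CTL against mean log2 CPM for 48 members (without Psmb11) at 0 h and at 6 h, with bars of 1 SE, red diamonds for the immunosubunits and a dashed line at the median of all genes tested. Differences run from -0.16 to 0.26 at 0 h, and none passes the test at either time.

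Other genes of the pathway were counted from lists of cofactors and ubiquitin receptors, of transcriptional control and of antigen processing. Of 24 cofactors and receptors tested, 6 rose and 2 fell in CTL over 6 h (median log2 change 0.19) and 6 rose and 0 fell in CKO. Over all genes tested, 41.6% rose and 21.7% fell in CTL, and 19.6% and 13.1% in CKO. Among genes with a mean of at least 1 CPM, 16.9% rose and 38.9% fell in CTL, and 10.3% and 22.6% in CKO. These shares are also the background of the lists below, whose counts describe the listed genes and are not a test. Txnl1, a thioredoxin-like partner of the 19S cap, rose by 0.70 (adjusted p = 3.7e-05), while Fbxo7, a partner of PI31, fell by 0.28 (adjusted p = 0.0031). Ddi1, a protease related to the one that activates Nrf1, passed with 5.24 (adjusted p = 0.00011), from a mean of 0.039 CPM to 1.21 CPM. Its CTL libraries at 6 h ran from 0.236 to 4.42 CPM with an SD of 1.80, larger than their mean.

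Of 16 genes of transcriptional control, 8 rose and 3 fell in CTL (median 0.37), and 9 rose and 1 fell in CKO. Maff, a small Maf partner of the Nrf family, rose by 2.62 (adjusted p = 2.0e-10) and the interferon gamma receptor chain Ifngr1 by 2.24 (adjusted p = 3.3e-10). Irf1, which carries the interferon signal to the immunosubunit genes, rose by 1.17 (adjusted p = 8.5e-08) in CTL and by 1.37 in CKO. Of 16 genes of antigen processing, 6 rose and 0 fell in CTL (median 0.11) and 5 and 0 in CKO. The peptidases Lap3 and Thop1 rose by 1.37 (adjusted p = 5.8e-05) and 1.27 (adjusted p = 0.00036), B2m, the light chain of MHC class I, by 0.65 (adjusted p = 0.0015), the peptide loader Tapbp by 0.44 (adjusted p = 0.0012), and the peptide transporter Tap1, the neighbour of Psmb9, by 0.34 (adjusted p = 0.016). Without the CKO_0h libraries 4.24 and 5.6, with the same reference library, 4 cofactors rose in CKO in place of 6, and the other counts in CKO were the same, with Irf1 at 1.33. Of 27966 genes tested there, 5449 rose and 3330 fell in CKO. Between genotypes edgeR called none of the genes of these lists with all libraries. DESeq2 called 1 at 0 h, Ngly1 of the transcriptional control list, which encodes the glycanase that processes Nrf1 (edgeR log2 difference 0.33, SE 0.095, adjusted p = 0.18; DESeq2 adjusted p = 0.023). Without the CKO_0h libraries 4.24 and 5.6, edgeR also called Ngly1 at 0 h (0.45, adjusted p = 0.020).

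Some libraries held high or low levels for most members. No such counts were made over all genes, so the pattern is not shown to be particular to the members. CTL_0h 5.13 held the highest level of its 6 libraries for 40 of 48 members with a mean of at least 1 CPM, with a median deviation of 0.24 (log2), and CKO_0h 5.13 for 45 of 48, with 0.25. Their TMM factors, 0.891 and 0.861, were the lowest of the 20. Without TMM the deviations were 0.12 and 0.10, and they were highest for 29 and 34 of the 48 members. CTL_6h 5.13 was the lowest of its 5 libraries for 29 of 48, and CKO_6h 11.18 the highest of its 3 for 42. Set by number, the median 6 h change of the members was 0.26 (10.28), 0.34 (4.24), 0.35 (4.29), 0.45 (9.20) and -0.09 (5.13) in CTL, and 0.38 (11.18), 0.17 (5.6) and -0.15 (5.13) in CKO. Over the 14189 genes with a mean of at least 1 CPM the median was negative in every number, from -0.38 to -0.14. Both negative medians of the members belong to number 5.13, where they (-0.09 and -0.15) lay close to those of all genes (-0.14 and -0.16). Psma5 changed by 0.69, 1.07, 0.90 and 0.99 in the CTL numbers 10.28, 4.24, 4.29 and 9.20, and by 0.09 in 5.13.

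Higher in all 5 CTL numbers were 12 members: Psma3, Psma5, Psma7, Psmb9, Psmc2, Psmc4, Psmd1, Psmd7, Psmd11, Psme1, Psme2 and Psmg4. Psmd5 and Psme2b were lower in all 5, and Psmb8 was higher in 1 of 5. The share of all genes higher or lower in every number was not computed, so these counts describe the members only. A fit without the libraries numbered 5.13, with the reference library kept, was added after seeing the data. In it 29 members rose and 2 fell in CTL and 10 rose and 0 fell in CKO. Of 30262 genes tested there, 12491 rose and 5891 fell in CTL, and 2382 and 2131 in CKO.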

How the data were processed

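RNA of 20 libraries was made with a TruSeq stranded mRNA kit, per the labels' protocols. The authors deposited whole-number counts per Ensembl gene, without normalization. Tools listed in the submitters' processing notes are STAR 2.5.2b, Trimmomatic 0.36 and featureCounts of Subread 1.5.2, with the build GRCm38. The sources used here give neither annotation release nor strand setting. Of 49315 IDs, 49056 matched GENCODE M21, which gave symbols and coordinates, and 4 pseudogenes with a member prefix were left out. The table held 0 columns of other samples.

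edgeR 4.0.16 in R 4.3.3 (filterByExpr, minimum count 10, minimum total 15; TMM; glmQLFit, robust; glmQLFTest) fitted the 4 groups and labelled sex over all 20 libraries, with Benjamini-Hochberg adjustment over 28082 genes. DESeq2 1.42.0 was an alternative. Ratios used exact two-sided permutation tests over libraries. The scripts were tested on simulated data. Named genes are Psmb5 to Psmb10 and, per role, the called member with the largest CTL change, then values or ranges for others. Some genes of the pathway lists are counted but not reported here by name. Members and lists were chosen with earlier results of these data known.

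Libraries were no copies of one another: over 43 pairs the chi-square per degree of freedom was 18.7 to 271. Same-numbered libraries deviated together for 6 h against 0 h in CTL (r 0.25 to 0.53 over genes, 5 pairs) and between genotypes at 0 h (0.24 to 0.70, 5 pairs). For 6 h against 0 h in CKO r was 0.093, 0.506 and 0.212. Between genotypes at 6 h, number 5.13 gave 0.587. Libraries of different numbers were not set beside these, so the values cannot decide whether the numbers pair the libraries. The main tests were unpaired, and fits with the number as a block are given below. Where a group value is given, the spread between libraries sets its precision, at 26.4 to 85.6 M counts.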

Additional observations from a re-analysis of the deposited data

Results flagged for a closer look

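Within groups of 5 or 6 libraries, the gap of the highest or lowest library to its nearest neighbour was set against the range of the group (Dixon's 95% value). Of 156 groups tested, 40 (25.6%) passed, where chance gives about 1 in 20, and the members of one library are not independent. CKO_0h 5.13 accounted for 23, CTL_6h 4.24 for 11, CTL_0h 5.13 for 3, CTL_6h 5.13 for 2 and CKO_0h 9.20 for 1.

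CKO_0h 5.13 stood apart as the highest library for the alpha genes Psma1 (91.28 CPM), Psma2 (115.9) and Psma5 (52.07). The same held for the beta genes Psmb1 (152.4 CPM), Psmb2 (53.91), Psmb3 (110.3), Psmb4 (151.3), Psmb5 (72.95), Psmb6 (91.34), Psmb7 (63.95) and Psmb10 (161.0). Among the 19S genes it stood apart for Psmc1 (94.79 CPM), Psmc3 (147.4), Psmc4 (88.07), Psmc5 (98.54), Psmd6 (64.61), Psmd8 (124.7), Psmd13 (93.17) and Psmd14 (62.34), and it did so too for Psmg1 (22.41) and Psmf1 (49.84). It had the lowest log2 ratio of Psmb8 to Psmb5 (2.369) and of Psmb9 to Psmb6 (1.227). Its TMM factor, 0.861, was the lowest of the 20.

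CTL_6h 4.24, the library with 26.4 M counts, was lowest for Psmc3 (90.34 CPM), Psmd2 (111.1), Psmd3 (77.04), Psmd4 (90.42), Psmd5 (33.57), Psmd13 (49.42), Psme4 (55.57) and Psmf1 (33.04). It was highest for Psmg4 (34.66 CPM), Psmb1 (147.5) and Psmb11 (3.365). CTL_0h 5.13 was highest for Psmd10 (26.06 CPM), Psme2 (250.6) and Psmb10 (171.4), CTL_6h 5.13 lowest for Psma4 (92.89) and Psma7 (134.5), and CKO_0h 9.20 highest for Psmb9 (238.6).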

How the results depend on the processing

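Over all settings, 0 members were called between genotypes at either time or in the interaction. The number called for 6 h in CTL, 31, ran from 19 to 35, and in CKO, 12, from 5 to 17. The number of all genes called also moved between settings, so these counts describe the members only. Among the 19S non-ATPase genes in CTL, Psmd12 lost its call in 17 and Psmd14 in 8 of 39 settings. Psmd1, Psmd7 and Psmd11 lost theirs in 0. TMM scales against 1 reference library, CTL_0h 9.20, and leaving out some libraries switched it, which lowered the median log2 change of all genes in CTL from 0.31 to between 0.20 and 0.25. With CTL_6h 5.13 as reference, chosen after seeing the data, 19 members rose and 3 fell in CTL and 8 and 1 in CKO, and with CTL_0h 4.29, 23 and 2, and 7 and 2. With any single library left out, CTL calls ran from 19 to 31 and CKO calls from 6 to 16, and with the reference kept, where the switch had occurred and CTL_0h 9.20 remained, from 25 to 31 and 10 to 12. Without CTL_6h 4.24 the reference stayed, yet the median of all genes in CTL was 0.15 and that of the members 0.31. Without both CKO_0h libraries whose Xist disagrees, 19 were called in CTL and 5 in CKO, and with the reference kept 31 and 7. All fits with the reference kept were added after seeing the data. At an adjusted p under 0.01, 5 were called in CKO. With genes under a mean of 1 CPM removed, Psme2b reversed to 0.027 and Psmd5 was called in neither genotype.

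With the number as a replicate block and the sex label, 26 were called in CTL (25 higher, 1 lower) and 5 in CKO. With the block and no sex term, 27 and 10 were called. With no block and no sex term, 29 members rose and 2 fell in CTL, and 11 and 1 in CKO. The Xist level in place of the sex label gave the same counts. The Psmb8 to Psmb5 ratio in CTL changed by -0.48 over pairs (exact sign flips, p = 0.0625). With a library left out it changed by -0.56 to -0.38, and between genotypes at 0 h by -0.12 to -0.056. The cause of these shifts was not tested, apart from the reference switch. Low genes such as Psmb11 are uncertain in CTL_6h 4.24, at 26.4 M counts, which held the highest Psmb11 level of its group (3.365 CPM). The cause of that level was not tested.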

Other observations

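At 6 h the log2 ratio of Psmb8 to Psmb5 was 1.71 in CTL_6h 9.20, 2.08 in CTL_6h 10.28 and 1.96 in CKO_6h 11.18, and 2.28 to 2.43 in the other 5 libraries of both genotypes. The ratio of Psmb10 to Psmb7 was 0.48, 0.87 and 0.88 in those 3 libraries, and 1.14 to 1.44 in the other 5.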
